A study of Mus musculus with 6 samples.

Results

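The genes described here are the molecular chaperones and protein disulfide isomerases of mouse liver, chosen by symbol alone: the heat shock protein families Hspa, Hspb, Hspd, Hspe, Hsph and Hsp90, the DnaJ families Dnaja, Dnajb and Dnajc, and the Pdia family. The rule found 77 of the 22068 symbols in the files, and used no measured value. They comprise 14 genes of the Hsp70 group, 3 Hsp90 genes, 8 genes with the Hspb symbol of small heat shock proteins, 2 chaperonin genes, 45 DnaJ genes and 5 disulfide isomerase genes. By the place where their products are known to act, 13 were assigned to the lumen of the endoplasmic reticulum, 5 to its membrane, 37 to the cytosol and nucleus, 10 to mitochondria and 12 to other or unassigned places. The libraries were made from polyadenylated liver RNA of C57BL/6 mice at an age of 6 weeks. The 3 dKO libraries came from Mst1/2 liver-dKO mice of genotype Mst1-/-, Mst2fl/fl and alb-Cre+/+. The 3 control libraries came from mice that were likewise Mst1-/- and Mst2fl/fl but alb-Cre-/-, so by the labels both groups lacked Mst1, and the comparison is of Cre-driven loss of Mst2 on that background. Cre was driven by the albumin promoter, which is active in hepatocytes, and recombination in other liver cells was not measured. Mst1 and Mst2 are Hippo pathway kinases, listed in the files as Stk4 and Stk3.

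Chaperones of the Hsp70 group bind exposed hydrophobic stretches of unfolded proteins in a cycle of ATP hydrolysis that DnaJ proteins start, and Hsp90 proteins act on clients at a later step of folding. In the cytosol, heat shock factor 1 induces many of these genes through heat shock elements when unfolded protein accumulates. In the endoplasmic reticulum, where the liver folds the plasma proteins it secretes, the unfolded protein response induces BiP, Grp94, disulfide isomerases and lumenal DnaJ proteins, in part through the endoplasmic reticulum stress element. Mitochondria hold an Hsp70 and a chaperonin of their own.

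The values are RPKM (read counts scaled by the length of the gene model and by library size), a unit inferred from the values. RPKM summed to between 324034 and 352678 in the dKO libraries and to between 364571 and 368246 in the control libraries. The files give no read totals; from the steps between low values, depth was put at about 21200000 to 24400000 reads in dKO and at about 17400000 to 25100000 reads in control libraries. The hepatocyte markers, albumin among them, summed to 41957 to 49237 RPKM in dKO libraries and to 50136 to 64993 RPKM in control libraries. Stk3 had 5.13, 4.25 and 5.32 RPKM in dKO livers, against 6.00, 5.42 and 5.20 RPKM in control livers, and Stk4 had 5.84, 4.93 and 5.76 RPKM in dKO livers, against 5.5, 4.69 and 4.66 RPKM in control livers. Values per gene cannot show a deleted exon, so they did not test the genotype labels. On the first principal component of all tested genes, dKO replicate 3 lay at 49.0, apart from dKO replicates 1 and 2 at 20.3 and 19.2, while the control libraries lay between -35.7 and -25.4. Whether each library is a different mouse is not stated in the labels, and the p-values therefore reflect the spread between these libraries alone, which may be technical.

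Chaperone transcripts as a whole lay at overlapping levels in the groups. The 77 members summed to 2140.1, 2028 and 2039.7 RPKM in dKO livers, against 1976, 1977 and 2186 RPKM in control livers, and the groups overlapped. As a share of all RPKM this was 0.613%, 0.575% and 0.629% in dKO livers, against 0.542%, 0.537% and 0.594% in control livers. The most abundant members were Hsp90ab1, the constitutive cytosolic Hsp90, with a mean of 315 RPKM over the 6 libraries, Hsp90b1 (Grp94, the Hsp90 of the endoplasmic reticulum) with 293 RPKM, and Hspa5 (BiP, its Hsp70) with 186 RPKM. The ranges over libraries of Hsp90ab1 (293 to 338 RPKM) and Hsp90b1 (229 to 352 RPKM) overlapped, whereas that of Hspa5 (174 to 209 RPKM) lay under both. Pdia3, Pdia6 and Pdia4 followed with means of 143, 116 and 93.9 RPKM, and these 6 genes held 55.8% of the summed level. At the low end, 19 members had a mean under 1 RPKM and were not tested, and 5 of those, Dnajb8, Dnajc5b, Dnajc5g, Hspb3 and Pdia2, were listed at 0 in every library.

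Of the 58 members that were tested, 4 were called higher and 3 lower in dKO livers (limma adjusted p under 0.05). That is 6.90% and 5.17% of them, where the calls took in 17.8% of the 11062 tested genes upward and 2.17% downward. Leaving out 1 library at a time gave 2 to 4 members higher, with 2 without dKO replicate 2 or 3. The higher counts without control replicate 1, 2 or 3 (3, 4 and 3) include Hspa12a, which is not among the 58. It reached the minimum mean only once a control library was left out, and no omission kept all 4 higher calls. Lower calls came to 0 to 2, with 0 without dKO replicate 2 or 3 or control replicate 1 and 1 without dKO replicate 1. The median log2 change of the 58 members was 0.07, against 0.23 for all tested genes. All 3 dKO libraries lay above all 3 control libraries at 14 members and below them at 6, shares of 58 that stand beside 38.3% and 6.73% of all tested genes. Each RPKM value depends on what the other transcripts take up, and the top 20 genes held 26.9% to 30.7% of the RPKM sum in dKO and 31.0% to 36.7% in control libraries. After median-ratio scaling the median of all tested genes was -0.01, a shift of the whole distribution, and 0 members were called higher and 7 lower, where under that scaling the calls took in 7.86% of genes upward and 5.56% downward. Higher calls thus made up 89.1% of all calls on RPKM as deposited and 58.6% after that scaling. The directions below are those of RPKM as deposited, with the scaled value beside each call of a named gene.

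**Figure D1:**
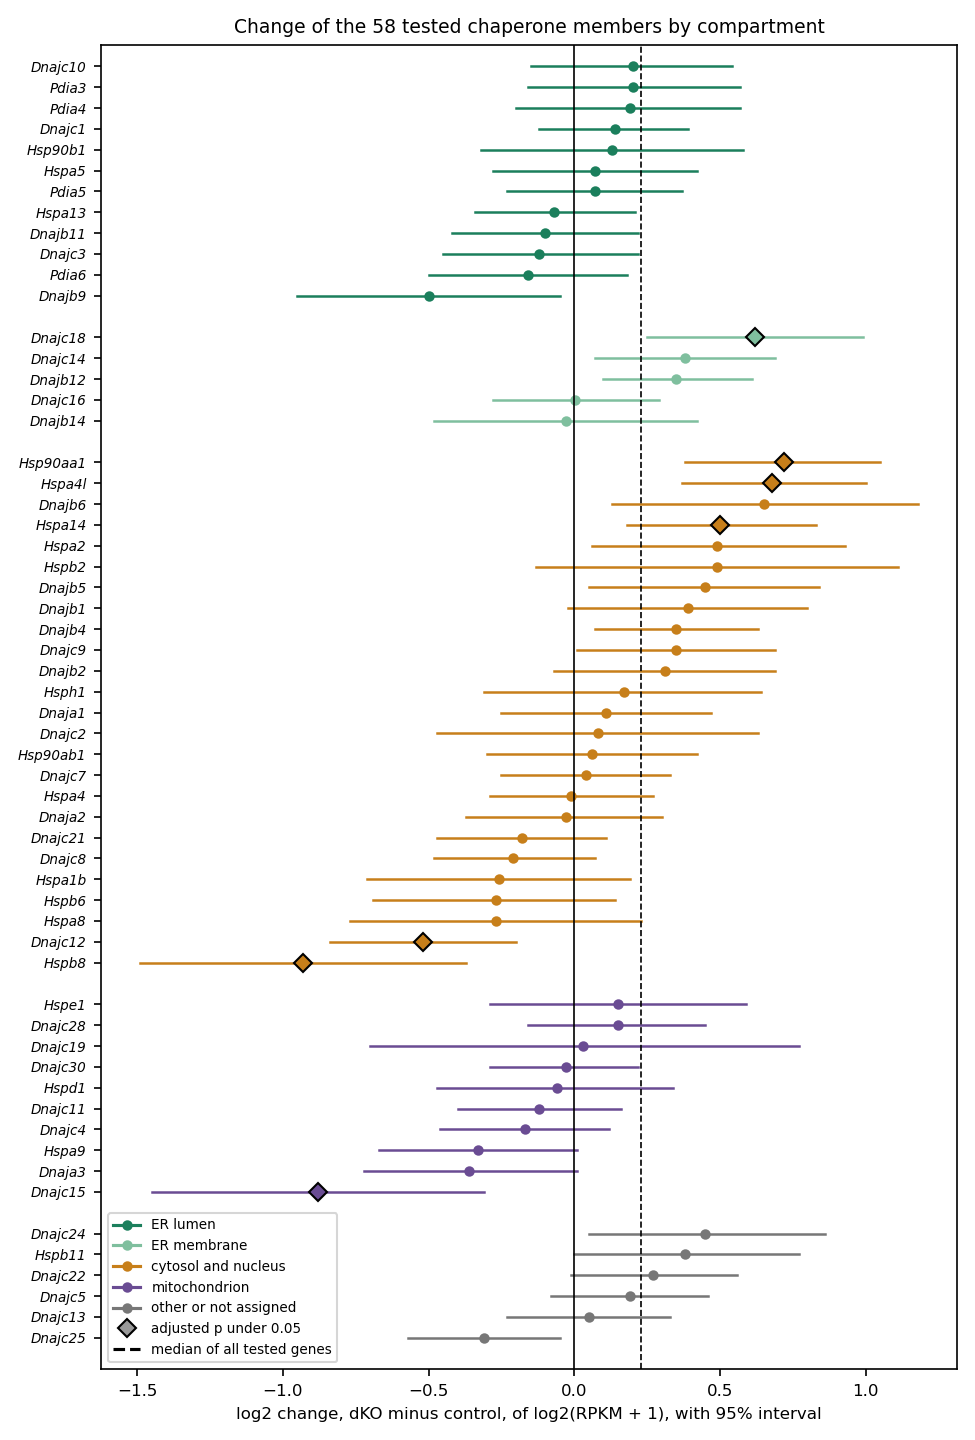
Log2 change, dKO minus control, of the 58 tested chaperone members on the log2(RPKM + 1) scale with 95% intervals, grouped by compartment (colour) and ordered by change; diamonds mark an adjusted p under 0.05 and the dashed line the median of all tested genes at 0.23. The endoplasmic reticulum lumen members lie between -0.50 and 0.20 with none called, while the cytosol and nucleus members spread from -0.93 to 0.72 with 5 called.

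No chaperone of the endoplasmic reticulum lumen passed the test. Of 12 tested members 0 were called by limma, beside 17.8% upward and 2.17% downward for all tested genes. An unadjusted limma p under 0.05 was found for 1 of the 12, compared with 4190 of all 11062 tested genes. The smallest limma adjusted p was 0.102. The median log2 change of the 12 was 0.07, against 0.23 for all tested genes. The 95% interval of the change lay within 1.5-fold in either direction for 11 of the 12 (91.7%), compared with 36.7% of all tested genes; the intervals are not adjusted for the number of genes. After median-ratio scaling the median was -0.21, and the interval lay within 1.5-fold for 6 of the 12, compared with 48.4% of 11008 genes, and reached past it for Hspa5, Hsp90b1, Pdia6, Dnajb9, Dnajb11 and Dnajc3. The summed level of the 13 lumen members was 1049.9, 953 and 1011 RPKM in dKO livers, against 937, 856 and 1102 RPKM in control livers, and the highest and the lowest of the 6 sums were both controls.

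Part of this set shares a promoter sequence that the choice by symbol did not use. The sequence was already known from the induction of BiP, Grp94 and other lumenal chaperones, so finding it in them is no independent result. The endoplasmic reticulum stress element, CCAAT and CCACG set apart by 9 bases, was searched on both strands in RefSeq promoters (GRCm38.p6, 250 bases before to 50 after each start). It was found for 4 of the 12 lumen members with a promoter in the table (33.3%), namely Hspa5, Hsp90b1, Pdia6 and Dnajc3, and for 0 of the 51 members outside the lumen with one, while 37 of all 27025 genes held it (0.137%). The second form of the element, ATTGG and CCACG set apart by 1 base, was found in Dnajb11 alone among the members. There it lay past the start site, and in all it was found in 12 genes (0.0444%). Another motif of this response, TGACGTGG, was found in Dnajc25 alone among the members and in 0.714% of all genes. The stretches around the 4 matches follow, since these are the genes a response of the endoplasmic reticulum would be read from, with the match in capitals and each sequence 5′ to 3′ on the strand of its gene. Hspa5 is at chr2:34771985-34772083 (+), Pdia6 at chr12:17266451-17266549 (+), Dnajc3 at chr14:118937787-118937885 (+) and Hsp90b1 at chr10:86705493-86705694 (-), where 2 matches lie in opposite orientation.
Hspa5: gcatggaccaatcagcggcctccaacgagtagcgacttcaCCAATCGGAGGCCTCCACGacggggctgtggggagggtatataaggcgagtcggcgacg
Pdia6: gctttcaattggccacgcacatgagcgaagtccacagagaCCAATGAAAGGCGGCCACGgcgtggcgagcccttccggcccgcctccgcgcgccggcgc
Dnajc3: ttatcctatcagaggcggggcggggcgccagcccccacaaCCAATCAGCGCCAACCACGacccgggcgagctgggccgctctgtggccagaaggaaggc
Hsp90b1: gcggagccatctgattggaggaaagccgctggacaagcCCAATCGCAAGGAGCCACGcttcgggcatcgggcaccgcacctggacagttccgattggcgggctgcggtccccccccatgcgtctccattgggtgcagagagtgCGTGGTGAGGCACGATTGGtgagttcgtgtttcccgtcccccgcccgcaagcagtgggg
A match is a description of the sequence and does not show that a factor binds there, and the coordinates are those of GRCm38, not of the mm9 build named for the values.

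The 4 genes with this element showed no difference between the groups that passed the test. Hspa5, the lumenal Hsp70 that also holds the stress sensors inactive, had 209, 176 and 188 RPKM in dKO livers, against 174, 174 and 195 RPKM in control livers. The groups overlapped, and the log2 change was 0.07 ± 0.15 (SE) with a 95% interval of -0.28 to 0.42 (limma adjusted p = 0.75). Hsp90b1 had 321, 282 and 310.2 RPKM in dKO livers, against 265, 229 and 352 RPKM in control livers, where control replicate 3 was the highest and control replicate 2 the lowest of all 6. Its log2 change was 0.13 with an interval of -0.32 to 0.58 (limma adjusted p = 0.643). Pdia6, a disulfide isomerase of the lumen, had 120.3, 111 and 98.6 RPKM in dKO livers, against 117, 121 and 129 RPKM in control livers (log2 change -0.16, limma adjusted p = 0.453). Dnajc3 (P58IPK), a lumenal cochaperone of BiP, had 50.6, 54.4 and 46.2 RPKM in dKO livers, against 57.9, 46.9 and 60.0 RPKM in control livers (log2 change -0.12, limma adjusted p = 0.585). In both the groups overlapped. After median-ratio scaling the log2 change of Hspa5 and Hsp90b1 was -0.21 and -0.15, with limma adjusted p of 0.432 and 0.675. That of Pdia6 and Dnajc3 was -0.44 and -0.40, with limma adjusted p of 0.129 and 0.178.

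Dnajb9 (ERdj4), the cochaperone that helps BiP to silence IRE1 and a target of its effector XBP1, stood furthest from 0 among the lumen members. It had 16.4, 13.9 and 16.4 RPKM in dKO livers, against 29.1, 16.3 and 23.6 RPKM in control livers. Control replicate 2 lay within the dKO range, and the other control libraries lay above it. The log2 change was -0.50 ± 0.20 (SE, limma adjusted p = 0.102), and without control replicate 2 it was -0.72 with a limma adjusted p of 0.0179, the only call among lumen members under any of the 13 alternatives; without control replicate 1 it was -0.32 (limma adjusted p = 0.272), and after median-ratio scaling -0.78 (limma adjusted p = 0.0554). Xbp1, the transcription factor gene that IRE1 activates by splicing, had 58.9, 54.4 and 55.4 RPKM in dKO livers, against 74.0, 57.8 and 84.2 RPKM in control livers, again with control replicate 2 nearest to the dKO libraries. Its log2 change of -0.34 missed the threshold (limma adjusted p = 0.17), and without control replicate 2 it was -0.48 (limma adjusted p = 0.049), without control replicate 3 -0.22 (limma adjusted p = 0.457) and after median-ratio scaling -0.62 (limma adjusted p = 0.0685). A level per gene does not show how much Xbp1 RNA was spliced.

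The disulfide isomerases, which form and exchange the disulfide bonds of secreted proteins, overlapped between the groups at all 4 tested genes. Pdia3 (ERp57), which acts on glycoproteins with calnexin and calreticulin, had 145, 148 and 166 RPKM in dKO livers, against 127, 120.1 and 153 RPKM in control livers (log2 change 0.20, limma adjusted p = 0.373). Pdia4 (ERp72) averaged 99.5 ± 6.24 RPKM in dKO livers and 88.2 ± 16.6 RPKM in control livers (SD, n = 3 each; limma adjusted p = 0.441). Pdia5 averaged 19.6 ± 1.11 RPKM in dKO livers and 18.7 ± 2.63 RPKM in control livers (limma adjusted p = 0.728). P4hb, the main disulfide isomerase of the compartment, whose symbol falls outside the rule, had 444, 422 and 394 RPKM in dKO livers, against 377, 393 and 416 RPKM in control livers (log2 change 0.09, limma adjusted p = 0.713). Pdia2, the isomerase of the pancreas, was listed at 0 throughout.

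The other lumenal DnaJ proteins and Hspa13 lay close between the groups as well. Dnajb11 (ERdj3), a BiP cochaperone, averaged 29.2 ± 2.73 RPKM in dKO livers and 31.4 ± 3.92 RPKM in control livers (SD, n = 3 each). Dnajc10 (ERdj5), a reductase of disulfides in proteins bound for degradation, had 10.6, 8.40 and 12.6 RPKM in dKO livers, against 8.69, 8.94 and 9.25 RPKM in control livers, with dKO replicates on either side of the controls. Dnajc1 (ERdj1), a membrane protein with its J domain in the lumen, was the single lumen member at which the groups did not overlap, at 9.12, 10 and 10 RPKM in dKO livers, against 8.92, 8.40 and 8.94 RPKM in control livers. The difference of 0.14 on the log2 scale missed the threshold (limma adjusted p = 0.394). Hspa13 (Stch), a microsomal Hsp70 without a peptide-binding domain, averaged 11.8 ± 1.25 RPKM in dKO livers and 12.4 ± 0.434 RPKM in control livers.

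**Figure D2:**
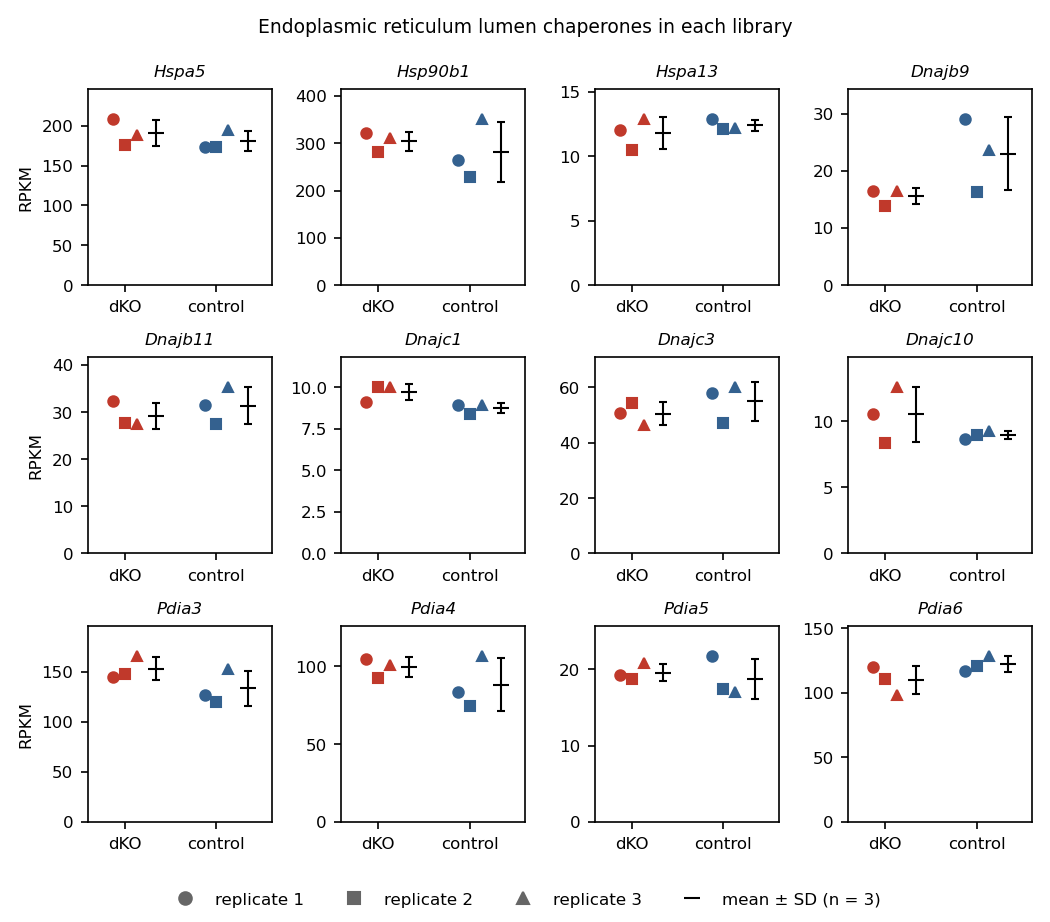
RPKM of the 12 tested endoplasmic reticulum lumen chaperones in each library, dKO left of control in every panel, with marker shape for the replicate and the mean ± SD (n = 3) beside the points; each vertical axis starts at 0. The groups overlap at all genes but Dnajc1, and the Dnajb9 values of 29.1 and 23.6 RPKM in control replicates 1 and 3 lie above the other 4 libraries.

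Among 33 further genes of endoplasmic reticulum folding and the unfolded protein response, 3 were called higher and 1 lower, with a median log2 change of 0.03. The shares of 9.09% and 3.03% stand beside 17.8% upward and 2.17% downward for all tested genes. After median-ratio scaling it was 1 higher and 3 lower, beside background shares of 7.86% and 5.56%. Trib3, a pseudokinase gene that ATF4 and CHOP induce, had 6.82, 10.7 and 8.24 RPKM in dKO livers, against 3.12, 2.15 and 4.26 RPKM in control livers. The groups did not overlap, the log2 change was 1.21 ± 0.22 (SE, limma adjusted p = 0.00933), and the call held under all 13 alternatives with limma adjusted p from 0.00898 to 0.0402; after median-ratio scaling the log2 change was 0.97. Eif2ak3, which encodes the sensor PERK, and Atf6b, which encodes a relative of the sensor ATF6, rose with log2 changes of 0.51 and 0.56 (limma adjusted p = 0.0489 and 0.0276). The Eif2ak3 call was lost on leaving out any single library, with a limma adjusted p of 0.0625 without control replicate 3 and up to 0.135 without control replicate 1, and at 0.202 after median-ratio scaling (log2 change 0.27). The Atf6b call was lost on leaving out any library except dKO replicate 2, with log2 changes of 0.46 to 0.61 and limma adjusted p of 0.0511 to 0.0866, and at 0.109 after median-ratio scaling (log2 change 0.32). Txndc11, which encodes a thioredoxin domain protein, fell by 0.50 on the log2 scale (-0.50, limma adjusted p = 0.0267), a call that was lost on leaving out any library except dKO replicate 3, with limma adjusted p of 0.0565 to 0.0744, and kept after median-ratio scaling (-0.75, limma adjusted p = 0.00611).

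The other landmarks of that response gave no call. Ddit3 (CHOP) had 3.25, 2.80 and 5.30 RPKM in dKO livers, against 1.67, 2.85 and 2.47 RPKM in control livers (log2 change 0.50, limma adjusted p = 0.134). Atf4, the transcription factor gene upstream of it, averaged 34.2 ± 3.12 RPKM in dKO livers and 31.5 ± 2.60 RPKM in control livers (SD, n = 3 each; limma adjusted p = 0.546), and much of its control is known to be at translation. Hyou1, a lumenal relative of Hsp70 that serves BiP, had 25.3, 18.4 and 19.8 RPKM in dKO livers, against 23.8, 18.7 and 24.7 RPKM in control livers (limma adjusted p = 0.737). Calr, which encodes calreticulin, had 346, 340.2 and 448 RPKM in dKO livers, against 376, 277 and 346 RPKM in control livers (limma adjusted p = 0.516).

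The DnaJ proteins of the endoplasmic reticulum membrane, of which Dnajb12 and Dnajb14 turn their J domains to the cytosol, gave 1 call. The 5 genes summed to 39.5, 42.2 and 42.2 RPKM in dKO livers, against 30.1, 35.1 and 33.2 RPKM in control livers, with no overlap. Of them 1 of 5 was called higher (beside 17.8% of all tested genes), with a median log2 change of 0.35; after median-ratio scaling 0 of 5 were called and the median was 0.08. Dnajc18 had 2.76, 3.29 and 4.12 RPKM in dKO livers, against 2.03, 1.59 and 1.90 RPKM in control livers, a log2 change of 0.62 ± 0.16 (SE, limma adjusted p = 0.0316). Its call was lost on leaving out any library except dKO replicate 1, with log2 changes of 0.50 to 0.67 and limma adjusted p of 0.0632 to 0.0814, and after median-ratio scaling the log2 change was 0.41 (limma adjusted p = 0.0922). Dnajb12, which with the cytosolic Hsp70 directs membrane proteins to degradation, had 17.9, 20.3 and 18.5 RPKM in dKO livers, against 14.5, 14.9 and 14.4 RPKM in control livers (log2 change 0.35, limma adjusted p = 0.057). Dnajc14 had 10.8, 11.4 and 12.2 RPKM in dKO livers, against 7.15, 9.50 and 9.23 RPKM in control livers (log2 change 0.38, limma adjusted p = 0.0786). Both were without overlap but missed the threshold. Dnajb14 and Dnajc16 overlapped, with log2 changes of -0.03 and 0.004.

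The changes of the cytosolic and nuclear chaperones ran over a wider range, from -0.93 to 0.72 on the log2 scale. Of 25 tested members 3 were called higher and 2 lower, beside 17.8% upward and 2.17% downward for all tested genes. Their median log2 change was 0.11, against 0.23 for all tested genes. After median-ratio scaling 0 were called higher and 3 lower, beside 7.86% and 5.56% of all genes, and the median was -0.12. On RPKM as deposited, 2 of the calls in all were made without dKO replicate 1, 2 or 3 or control replicate 1. The summed level of the 37 cytosolic and nuclear members was 597, 612 and 595 RPKM in dKO livers, against 582, 604 and 593 RPKM in control livers, with Hsp90ab1 its largest part. In the plot of sums by compartment the groups overlap for the lumen and for the cytosol. The median log2(RPKM + 1) of the tested lumen members exceeded that of the tested cytosol members by 2.28, 2.20 and 1.88 in dKO livers, against 2.45, 2.35 and 2.59 in control livers. These gaps in level did not overlap, while the median of the log2 changes in the lumen less that in the cytosol was -0.04, so these summaries of the same lists differ in size, and no test was run on either.

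**Figure D3:**
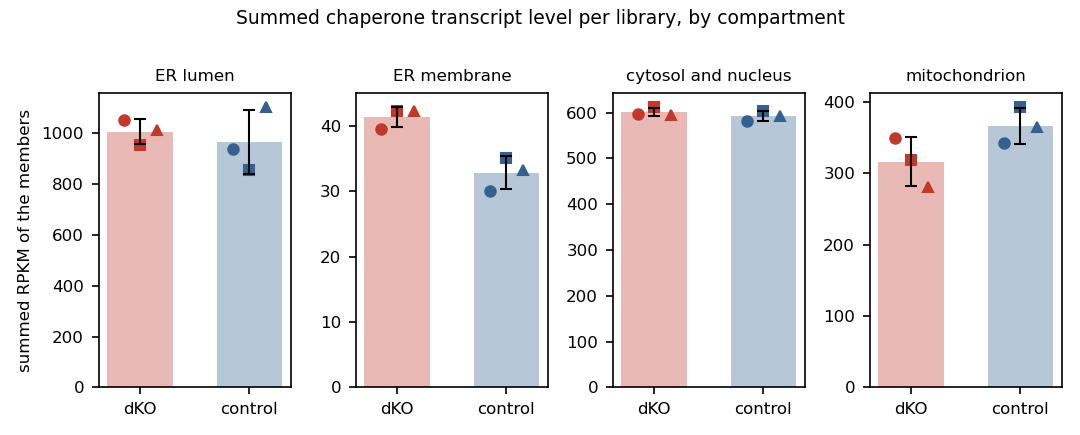
Summed RPKM of the members of 4 compartments, dKO left of control; bars are means, error bars the SD (n = 3), points the libraries with marker shape for the replicate, and each vertical axis starts at 0. The sums of the endoplasmic reticulum membrane members do not overlap (39.5 to 42.2 against 30.1 to 35.1 RPKM), and those of the other 3 compartments do.

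Of the cytosolic Hsp90 pair, the inducible form rose. Hsp90aa1, the stress-inducible form, had 28.6, 25.8 and 30.2 RPKM in dKO livers, against 13.7, 18.9 and 18 RPKM in control livers. The groups did not overlap, and the means of 28.2 ± 2.21 RPKM in dKO livers and 16.9 ± 2.76 RPKM in control livers (SD, n = 3 each) differed 1.67-fold, a log2 change of 0.72 ± 0.15 (SE, limma adjusted p = 0.0143). The call held without any single library, where the log2 change ran from 0.59 to 0.80, and missed the threshold after median-ratio scaling (0.44, limma adjusted p = 0.0539). Hsp90ab1, the constitutive form, had 331, 338 and 298 RPKM in dKO livers, against 293, 306 and 327 RPKM in control livers, with overlap (log2 change 0.06, interval -0.30 to 0.42, limma adjusted p = 0.794). As a ratio that scaling does not touch, Hsp90aa1 came to 8.66%, 7.64% and 10.1% of the Hsp90ab1 level in dKO livers, against 4.69%, 6.19% and 5.49% in control livers. Hsp90aa1 has 3 annotated pseudogenes that match it at 95% identity or more over at least 500 bases, and how the authors assigned reads shared with such copies is not given in the sources used here.

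A second pair, of the Hsp110 exchange factors that release ADP from Hsp70, showed the same arrangement. Hspa4l (Apg-1) had 7.52, 7.47 and 7.26 RPKM in dKO livers, against 4.12, 3.63 and 5.09 RPKM in control livers, without overlap. The log2 change was 0.68 ± 0.14 (SE, limma adjusted p = 0.0134). Its call held without any single library, at 0.59 to 0.79, and did not survive median-ratio scaling (0.44, limma adjusted p = 0.0822). Hspa4 (Apg-2), the more abundant of the pair, had 19.5, 19.5 and 23.1 RPKM in dKO livers, against 20.4, 19.9 and 22.1 RPKM in control livers (log2 change -0.01, interval -0.29 to 0.27). Hspa4l stood at 38.5%, 38.4% and 31.4% of the Hspa4 level in dKO livers, against 20.2%, 18.3% and 23.0% in control livers. Hsph1 (Hsp105), the stress-inducible Hsp110, had 6.44, 8 and 9.69 RPKM in dKO livers, against 9.20, 5.10 and 7.12 RPKM in control livers, so that the groups overlapped (limma adjusted p = 0.578).

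Hspa14, the Hsp70 that sits on the ribosome with the DnaJ protein Dnajc2, had 7.86, 7.18 and 8.95 RPKM in dKO livers, against 4.67, 6.22 and 5.20 RPKM in control livers, without overlap. The log2 change was 0.50 ± 0.14 (SE, limma adjusted p = 0.0399). It lost its call on leaving out any library except control replicate 2, with log2 changes of 0.42 to 0.57 and limma adjusted p of 0.0527 to 0.122, and after median-ratio scaling (0.25, limma adjusted p = 0.147). Its partner Dnajc2 had 3.46, 1.5 and 3.02 RPKM in dKO livers, against 2.21, 3.10 and 1.85 RPKM in control livers, with overlap.

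Hspa1b and Hspa8 and their DnaJ partners Dnajb1 and Dnaja1 were not called. Hspa1b, an inducible Hsp70, had 2.10, 0.918 and 1.62 RPKM in dKO livers, against 1.74, 2.15 and 2.07 RPKM in control livers (limma adjusted p = 0.361). Hspa1a, its near-identical copy, lay between 0.0838 and 0.337 RPKM in dKO livers and between 0.128 and 0.35 RPKM in control livers and was not tested; how reads shared by the pair were assigned is not given in the sources used here. Hspa8, the constitutive Hsp70, had 29.7, 41.9 and 42.0 RPKM in dKO livers, against 56.4, 33.6 and 49.4 RPKM in control livers (log2 change -0.27, limma adjusted p = 0.381), and 6 other genes, 5 of them pseudogenes, match it closely. Dnajb1, the DnaJ partner of the inducible Hsp70, had 7.17, 6.69 and 8.64 RPKM in dKO livers, against 6.98, 5.59 and 4.11 RPKM in control livers (log2 change 0.39, limma adjusted p = 0.148). Dnaja1, another partner of Hsp70, averaged 7.94 ± 1.65 RPKM in dKO livers and 7.19 ± 0.756 RPKM in control livers (SD, n = 3 each; limma adjusted p = 0.621). Hsf1, which encodes heat shock factor 1, averaged 5.04 ± 1.21 RPKM in dKO livers and 4.94 ± 1.42 RPKM in control livers (limma adjusted p = 0.919). A transcript level does not show how active the factor was.

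Genes with the Hspb symbol of small heat shock proteins, which hold unfolded proteins without using ATP, gave 1 call, lower, among 4 tested. Over all tested genes 2.17% were called lower. Of these 4 Hspb genes, Hspb11 does not encode a small heat shock protein but a protein of the cilium. Hspb8, which works with Bag3 in the autophagy of misfolded proteins, had 25.3, 29.2 and 23.5 RPKM in dKO livers, against 53.2, 70.9 and 33.9 RPKM in control livers. The groups did not overlap, though the control values spread widely, and Hspb8 fell by 0.93 ± 0.25 (SE) on the log2 scale (-0.93, limma adjusted p = 0.0326). That call remained under both scalings (-1.21 and limma adjusted p = 0.0244 with median-ratio scaling) and was lost without dKO replicate 1, 2 or 3 or control replicate 1, with log2 changes of -0.92, -1.02, -0.87 and -0.90 and limma adjusted p of 0.0826, 0.0519, 0.108 and 0.105. Bag3 itself, a non-member, averaged 10.3 ± 1.47 RPKM in dKO livers and 10.5 ± 3.08 RPKM in control livers (limma adjusted p = 0.996). Hspb1 (Hsp25 in mouse) had 0.861, 1.30 and 0.726 RPKM in dKO livers, whereas it was listed at 0, 0 and 0.0529 RPKM in control livers. Its mean was under the minimum of 1 RPKM, so it was not tested; in the fit without that minimum the log2 change was 0.94 (limma adjusted p = 0.0132). Hspb6 and Hspb2, small heat shock proteins known from muscle, overlapped between the groups, with log2 changes of -0.27 and 0.49 and limma adjusted p of 0.297 and 0.219.

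Of the cytosolic DnaJ proteins, Dnajc12, which binds phenylalanine hydroxylase and related enzymes, had 3.37, 3.31 and 3.66 RPKM in dKO livers, against 5.74, 5.97 and 4.52 RPKM in control livers. The groups did not overlap, and Dnajc12 fell by 0.52 ± 0.14 (SE) on the log2 scale (-0.52, limma adjusted p = 0.0339). The call remained under both scalings (-0.75 and limma adjusted p = 0.0111 with median-ratio scaling) and was lost on leaving out any library except control replicate 3, with log2 changes of -0.46 to -0.55 and limma adjusted p of 0.0595 to 0.103. Dnajb4, Dnajb5, Dnajc9 and Hspa2 lay without overlap above the controls and missed the threshold, with log2 changes of 0.35, 0.45, 0.35 and 0.49 and limma adjusted p of 0.0738, 0.0959, 0.122 and 0.0962. Dnajb6, an inhibitor of protein aggregation, had 6.44, 5.25 and 9.75 RPKM in dKO livers, against 3.05, 4.05 and 5.28 RPKM in control livers, with dKO replicate 2 just under control replicate 3 (log2 change 0.65, limma adjusted p = 0.0763). Dnajb6 has 5 closely matching pseudogenes.

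**Figure D4:**
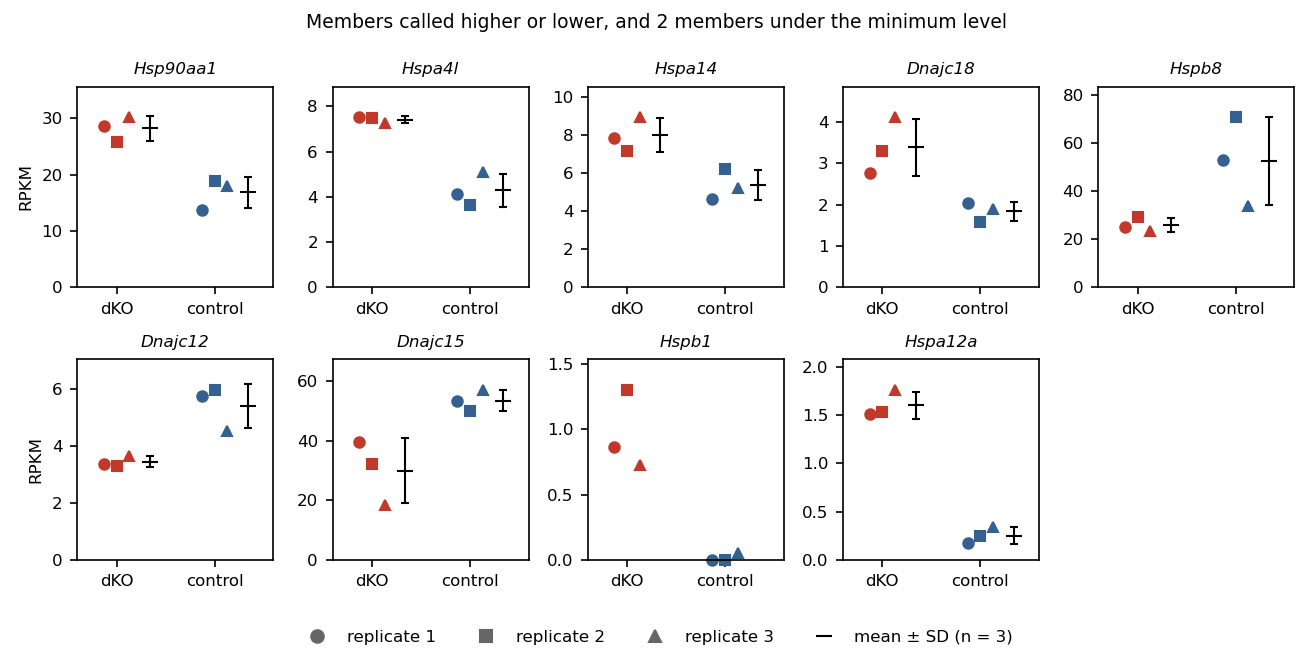
RPKM in each library of the 7 members called higher or lower and of Hspb1 and Hspa12a, which were under the minimum level for the test, dKO left of control; marker shape gives the replicate, mean ± SD (n = 3) stands beside the points except for Hspb1, which was listed at 0 in 2 libraries, and each vertical axis starts at 0. In all 9 panels the groups do not overlap, with Hspb8, Dnajc12 and Dnajc15 lower and the others higher in dKO livers.

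Cytosolic cochaperones and heat shock factors outside the rule gave 3 calls higher and 0 lower among 21 tested genes. The higher share of 14.3% lay under the 17.8% of all tested genes. After median-ratio scaling the list gave 2 higher and 3 lower, beside background shares of 7.86% upward and 5.56% downward. Fkbp5, an immunophilin that acts with Hsp90 on the glucocorticoid receptor, had 16.9, 18 and 24.4 RPKM in dKO livers, against 7.86, 8.10 and 9.59 RPKM in control livers, a log2 change of 1.11 ± 0.16 (SE, limma adjusted p = 0.0039) that held under all 13 alternatives, with 0.85 after median-ratio scaling (limma adjusted p = 0.00993). Cryab, a small heat shock protein gene with a symbol of its own, had 8.68, 15 and 30.4 RPKM in dKO livers, against 1.36, 2.42 and 3.91 RPKM in control livers. Its log2 change was 2.31 ± 0.46 (SE, limma adjusted p = 0.0194), with 2.05 and 2.31 and limma adjusted p of 0.0672 and 0.0526 without control replicate 1 and 2, and 2.08 after median-ratio scaling (limma adjusted p = 0.0233). Bag6, which hands tail-anchored proteins to the membrane, rose with a log2 change of 0.54 (limma adjusted p = 0.0299); its call did not survive median-ratio scaling (0.26, limma adjusted p = 0.142) and without dKO replicate 1 or 3 or control replicate 1 or 3 (limma adjusted p = 0.0605, 0.0629, 0.0889 and 0.0802). The 8 subunits of the cytosolic chaperonin CCT gave 0 calls by limma, beside 17.8% upward and 2.17% downward for all tested genes. An unadjusted limma p under 0.05 was found for 3 of the 8, compared with 4190 of all 11062 tested genes. All 8 had a log2 change above 0, as had 8420 of the 11062. The median of the 8 was 0.21, near the 0.23 of all tested genes, and -0.07 after median-ratio scaling.

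Mitochondrial chaperones had a median log2 change of -0.09 over 10 tested members, with 1 called lower (beside 2.17% of all tested genes) and 0 higher (beside 17.8%). After median-ratio scaling 3 were called lower, beside 5.56% of all genes. Dnajc15 (MCJ), an inner membrane DnaJ protein known to restrain complex I, had 39.5, 32.1 and 18.3 RPKM in dKO livers, against 53.4, 49.8 and 57.0 RPKM in control livers. The lowest value was that of dKO replicate 3, and the groups did not overlap. Dnajc15 fell by 0.88 ± 0.25 (SE) on the log2 scale (-0.88, limma adjusted p = 0.0424), and by 0.57 (-0.57, limma adjusted p = 0.0539) without dKO replicate 3. The call remained under both scalings (-1.16 and limma adjusted p = 0.0435 with median-ratio scaling) and was also lost without dKO replicate 2 or control replicate 1, 2 or 3 (limma adjusted p = 0.0623, 0.118, 0.0652 and 0.116). Hspa9 (mortalin), the Hsp70 of the matrix and of its import motor, had 91.1, 74.0 and 74.0 RPKM in dKO livers, against 98.7, 107 and 95.5 RPKM in control livers, without overlap. Its log2 change of -0.33 missed the threshold (limma adjusted p = 0.138), and after median-ratio scaling it was -0.62 (limma adjusted p = 0.0462).

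Hspd1 (Hsp60) and Hspe1 (Hsp10), which form the mitochondrial chaperonin, overlapped between the groups. Hspd1 had 75.6, 69.9 and 58.4 RPKM in dKO livers, against 58.1, 82.4 and 73.9 RPKM in control livers (log2 change -0.06, limma adjusted p = 0.804), and Hspe1 had 66.3, 67.9 and 47.0 RPKM in dKO livers, against 47.8, 66.2 and 48.7 RPKM in control livers (log2 change 0.15, limma adjusted p = 0.593). The genes lie head to head and share the sequence between them, where a heat shock element of 3 units (GAA and TTC in turn, each set apart by 2 bases) was found, in 2 overlapping matches. It was found for 4 of the 63 members with a promoter (6.35%) and for 179 of all 27025 genes (0.662%), and the other 2 members were Dnajb6 and Hsph1, in Hsph1 only past the start site. The shorter form of 2 units, GAANNTTC or TTCNNGAA, which every 3-unit match also holds, was found for 11 of 31 cytosolic and nuclear members (35.5%) and 1 of 12 lumen members (8.33%), against 17.0% of all genes. The shared stretch is at chr1:55088019-55088116, shown on the strand of Hspe1, and that of Dnajb6 at chr5:29735812-29735897 (+), with the matches in capitals; they are shown as the counterpart of the lumenal element.
Hspe1: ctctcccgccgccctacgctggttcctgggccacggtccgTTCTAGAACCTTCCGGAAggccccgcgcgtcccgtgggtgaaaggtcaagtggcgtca
Dnajb6: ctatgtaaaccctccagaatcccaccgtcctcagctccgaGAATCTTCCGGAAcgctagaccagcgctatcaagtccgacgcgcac
None of the 4 genes that hold the 3-unit element was called, with limma adjusted p of 0.0763 for Dnajb6, 0.578 for Hsph1, 0.593 for Hspe1 and 0.804 for Hspd1. The table holds no promoter for 14 of the 77 members, Hsp90aa1 among them.

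Of 10 mitochondrial folding and protease genes outside the rule, 2 were called higher and 0 lower, beside 17.8% and 2.17% of all tested genes. After median-ratio scaling 0 were called higher and 0 lower, beside 7.86% and 5.56% of all genes. Hscb, which encodes the DnaJ protein of iron-sulfur cluster assembly, had 6.77, 7.82 and 7.04 RPKM in dKO livers, against 1.29, 2.72 and 4.22 RPKM in control livers (log2 change 1.21 ± 0.27 SE, limma adjusted p = 0.0198). Without dKO replicate 2 or 3 its limma adjusted p was 0.0517 and 0.0641, and after median-ratio scaling the log2 change was 0.99 (limma adjusted p = 0.0545). Spg7, which encodes paraplegin, a protease of the inner membrane, rose with a log2 change of 0.64 (limma adjusted p = 0.0381), a call lost on leaving out any library except control replicate 2, with limma adjusted p of 0.0507 to 0.122, and after median-ratio scaling (0.38, limma adjusted p = 0.136).

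Among the members of other or unassigned place 0 of 6 were called by limma, beside 17.8% upward and 2.17% downward for all tested genes. An unadjusted limma p under 0.05 was found for 2 of the 6, compared with 4190 of all 11062 tested genes. The 12 members of other or unassigned place summed to 105, 101 and 111 RPKM in dKO livers, against 85.6, 88.8 and 93 RPKM in control livers. These sums did not overlap, and Dnajc22 was their largest part. The median log2 change of the 6 tested members was 0.23, as over all tested genes. After median-ratio scaling it was -0.04 with 1 of 6 called lower, beside 5.56% of all genes. Dnajc22, the DnaJ gene with the highest mean over the 6 libraries, known in Drosophila for a part in endocytosis, had 62.1, 59.8 and 64.6 RPKM in dKO livers, against 49.6, 50.5 and 53.7 RPKM in control livers, without overlap (log2 change 0.27, limma adjusted p = 0.146). In control livers alone Dnajc3 had the higher mean, 54.9 RPKM against 51.2 RPKM for Dnajc22. Hspb11, which in spite of its symbol encodes IFT25 of the cilium, had 7.77, 5.79 and 8.36 RPKM in dKO livers, against 4.54, 5.12 and 6.41 RPKM in control livers (limma adjusted p = 0.133). Dnajc24, needed for the diphthamide of elongation factor 2, and Dnajc25 did not overlap, with log2 changes of 0.45 and -0.31 and limma adjusted p of 0.10 and 0.0882. Hspa12a, a distant relative of Hsp70, was picked out after its values were seen. It had 1.51, 1.53 and 1.76 RPKM in dKO livers, against 0.171, 0.243 and 0.341 RPKM in control livers, means that differed 6.36-fold, and with a mean under 1 RPKM it was not tested. Without the minimum level its log2 change was 1.06 (limma adjusted p = 0.00854).

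Among markers of other liver cells, calls on RPKM as deposited fell on the cholangiocyte and progenitor set alone. Over all tested genes the calls took in 17.8% upward and 2.17% downward, or 7.86% and 5.56% after median-ratio scaling. Cholangiocyte and progenitor markers, of which 7 of 7 tested were called higher (6 after median-ratio scaling), summed to 367 to 1035 RPKM in dKO livers and 32.0 to 83.2 RPKM in control livers, highest in dKO replicate 3. Of 10 hepatocyte markers 5 were called lower (3 after median-ratio scaling). Stellate, fibroblast and smooth muscle markers summed to 178 to 299 RPKM in dKO livers and 171 to 189 RPKM in control livers, with 0 of 9 called and 2 unadjusted p under 0.05. Macrophage markers summed to 157 to 233 RPKM in dKO livers and 96.5 to 212 RPKM in control livers (0 of 7 called, 3 unadjusted p under 0.05), and sinusoidal endothelial markers to 97.4 to 116 RPKM in dKO livers and 88.3 to 98.5 RPKM in control livers (0 of 8 called, 0 unadjusted). Lymphocyte and plasma cell markers summed to 6.05 to 8.79 RPKM in dKO livers and 3.55 to 7.11 RPKM in control livers (1 tested, not called), and erythroid markers to 185 to 331 RPKM in dKO livers and 222 to 795 RPKM in control livers (0 of 5 called, 0 unadjusted). No marker in the files was at 0 in every library. Fewer cells of a type and less RNA per cell cannot be told apart in bulk tissue, and the part of these markers in the chaperone values was not tested.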

How the data were processed

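The authors deposited 1 value for each gene symbol, read here as RPKM, with 1 file for each library. The submitters' processing notes name mm9 as the genome; aligner, counter and annotation are not given in the sources used here. The unit was inferred: at the best spacing, 72.1% to 79.3% of low values of 3973 symbols with a single GENCODE M21 transcript lay within 0.15 of a whole read, where evenly spread values would give 30%.

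All 22068 symbols were joined. Genes averaging at least 1 RPKM over the libraries entered limma 3.58.1 (R 4.3.3) on log2(RPKM + 1), with trend, robust moderation, no block and Benjamini-Hochberg adjustment over 11062 genes; the script was tested on simulated data. A fold change on this scale understates that of low genes. The members and all lists were chosen with earlier results of these data known. Named in full were 25 fixed members, every called member, 7 fixed partner genes and up to 4 called genes per partner list; other members are given with values beside them. Near copies were sought with BLAST 2.17.0. Protein features, planned as a description, were not analysed here. RefSeq promoters (GRCm38.p6) matched 63 of 77 members. Alternatives were other scalings, filters and pseudocounts, no robust moderation, a replicate block and leaving out each library. The scaled partner counts, the scaled intervals and the fits of Hspb1 and Hspa12a without a filter were chosen after seeing the data.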

Additional observations from a re-analysis of the deposited data

How the results depend on the processing

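The cause of the changes below was not tested. With median-ratio or upper-quartile scaling, 0 or 1 members were called higher and 7 or 5 lower, the cytosolic and nuclear calls came to 3 in each (also 3 with no filter or with a fold of at least 1.5 added), and the median log2 change was -0.21 or -0.17 in the endoplasmic reticulum lumen and -0.12 or -0.09 in the cytosol. With no filter on low values 0 members were called lower. Leaving out 1 library at a time gave 2 to 4 members higher, 0 to 2 lower, 0 to 1 calls in the lumen and 2 to 4 in the cytosol. The higher counts without a control library include Hspa12a, which the main fit did not test.

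Genes that turned direction under median-ratio and upper-quartile scaling were Hspa5 (-0.21 and -0.17), Hsp90b1 (-0.15 and -0.11), Dnajc10 (-0.07 and -0.03), Pdia3 (-0.08 and -0.04), Pdia4 (-0.10 and -0.06), Pdia5 (-0.21 and -0.17), Hsp90ab1 (-0.22 and -0.18), Hsph1 (-0.09 and -0.05), Dnaja1 (-0.14 and -0.10), Hspe1 (-0.13 and -0.09), Hsf1 (-0.21 and -0.17), Atf4 (-0.17 and -0.12), Calr (-0.10 and -0.06), P4hb (-0.20 and -0.16) and Stk4 (-0.11 and -0.08). None of these was called under any of the 13 alternatives. Without single libraries Hsp90b1 ran from -0.01 to 0.30, Hspa13 from -0.13 to 0.01, Hsph1 from -0.03 to 0.35, Hspa4 from -0.09 to 0.03, Dnaja1 from -0.03 to 0.24, Hspd1 from -0.20 to 0.04, Hsf1 from -0.12 to 0.22 and Hyou1 from -0.21 to 0.01.

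Libraries sharing a replicate number did not deviate together (correlations of -0.081, -0.101 and -0.01), and those with different numbers gave -0.045 to 0.099. Deviations from the mean of 3 libraries sum to 0 in each group, so these correlations cannot exclude a pairing. With the replicate number as a block, 3 members were higher (Dnajb6, Hsp90aa1 and Hspa4l) and 2 lower (Dnajc15 and Hspb8). Over all genes, calls higher and lower came to 1513 and 202 with the block and 1434 and 145 with no filter, and without single libraries 763 to 1992 genes were called higher. Read totals are not known, so no counting error stands beside a value.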
